A study of Mus musculus with 4 samples.

Results

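The genes described here code for 10 chains of cytokine receptors: Il2ra, Il2rb and Il2rg of the IL-2 receptor, Il4ra, Il7r and Il21r, which pair with the Il2rg product, Il6ra and Il6st of the IL-6 receptor, and Il12rb1 and Il12rb2 of the IL-12 receptor. They were chosen by gene name, by a rule that uses no measured value but was set with earlier results of these data known, from 18539 genes that could be named on the array, and they were read by 13 probes. Il2ra, Il7r and Il6ra had 2 probes each and the other 7 genes had 1. The cells were Th2 cells, the helper T cells that secrete IL-4, IL-5 and IL-13, grown from CD4 T cells of the spleen of female C57BL/6J mice. All 4 cultures were activated for 2 days on anti-TCR-β (3 µg/ml) with anti-CD28 (1 µg/ml), IL-4 (10 ng/ml) and IL-2 (2.5 ng/ml), and were then kept for 3 days with the same cytokines and no antibody. Control cultures received no compound, and treated cultures received SH-2251, a small molecule whose labels give 1 µM in the first phase and 1 mM in the second. The methods name a much lower dose in the nanomolar range for the cultures, so the dose on these arrays is uncertain. The methods also start from naive CD4 T cells of mice aged 6 to 10 weeks and add an antibody to IFN-γ, whereas the labels name neither the naive sort, the age nor that antibody. Cells were either left resting or restimulated for 4 h on anti-TCR-β before total RNA was taken. The question addressed was how the compound alters gene expression in Th2 cells in each of these states.

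Each of the 4 conditions was hybridised to 1 one-colour array, so no difference given here has a replicate check, and no test between conditions was run. Whether the RNA came from 1 mouse or from pooled mice was not stated. Levels are log2 signals minus the 75th percentile of the same array, which lay between 499 and 614 intensity units, and a level of 0 is therefore the 75th percentile. The technical SD given with a difference comes from the error model of the scanner software and covers error within an array only, with a median of 0.20 on the log2 scale. For bright receptor probes such as Il2rb and Il4ra the model gave 0.144 on every array, whatever the signal. It is therefore a fixed yardstick for these probes and not a measure of their spread. The spread between repeated spots was smaller, with a median SD of 0.046 to 0.055 over probes spotted 10 times. Between 56.0% and 56.7% of probes were well above background on an array. All 13 receptor probes were well above background on all 4 arrays and none was saturated. Levels of different probes are not ranked against each other, because probes differ in how well they bind. Sums over a list of markers add signals of different probes. They serve only to set the arrays side by side and do not rank the cell types.

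The labelled cell type was checked against its markers. All 10 T cell markers and all 9 Th2 markers were well above background on every array. Of the B cell markers 8 of 9 were well above background on all 4 arrays, with Pax5 on none, and their summed scaled signal was 41.3 and 36.1 in resting control and SH-2251 cells and 33.2 and 46.1 in restimulated control and SH-2251 cells. Most of that sum came from H2-Ab1 and Cd74. With SH-2251, 0 of 8 were 2-fold higher at rest, against 2.22% of all genes. After restimulation 2 of 8 were (Ms4a1, 2.31-fold, and Cd74, 2.28-fold), against 2.65%. Of 5 regulatory T cell markers that could be matched, 3 were well above background on all 4 arrays, and the sum of the list, nearly all of it from Tnfrsf18, lay between 276 and 340. Ikzf2 was dim, at -3.98 and -2.72 in resting control and SH-2251 cells, and was 2.39-fold higher with SH-2251 at rest and at least 2.64-fold higher after restimulation, while Tnfrsf18, Ikzf4 and Nrp1 differed by -0.44 to 0.11. Foxp3, their defining factor, was near background, with levels of -3.84, -3.74, -4.54 and -3.83 in resting control, resting SH-2251, restimulated control and restimulated SH-2251 cells and the third of these not well above background. Of 6 matched CD8 T and NK cell markers, Klrb1c, Ncr1 and Klrk1 were well above background on no array, and the list summed to 1.81, 1.92, 4.49 and 3.95 in that order. Of 8 matched myeloid markers, Lyz2, Itgam, S100a8 and Itgax were well above background on no array, and the sums, mostly from Adgre1, lay between 2.54 and 3.06. Of the 4 that could be compared, 1 (Fcgr3) was 2-fold lower with SH-2251 in each state, against 2.90% and 2.78% of all genes. Fcgr3 was dim, and was 2.72-fold lower at rest and 2.16-fold lower after restimulation. IL-2, IL-6 and IL-7 receptor chains are also made by some of these cells, and the part of such cells in the differences was not tested. In RNA from a whole culture, fewer cells of a type and less RNA per cell cannot be told apart.

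A cytokine receptor of this class has no kinase of its own. Its chains are brought together by the cytokine, Janus kinases bound to the chains phosphorylate them, and STAT proteins that dock there carry the signal to the nucleus. The common γ chain, the product of Il2rg, is shared by the receptors for IL-2, IL-4, IL-7, IL-9, IL-15 and IL-21, and the second chain decides which cytokine is bound. In Th2 cells IL-4 acts through the IL-4 receptor α chain and STAT6, and IL-2 acts through STAT5, which also maintains the IL-2 receptor. The IL-12 receptor directs cells to the Th1 fate, and its β2 chain is known to be kept low in Th2 cells. gp130, the product of Il6st, is the signalling chain of the whole IL-6 family.

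The signal behind a value bears on its precision. Il4ra and Il2rb were read at 39162 to 90421 intensity units, far from background, whereas the Il12rb2 probe was read at 63.9 to 137 units and the 2 Il6ra probes at 59.3 to 162 units. These signals do not rank the genes by expression.

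**Figure D1:**
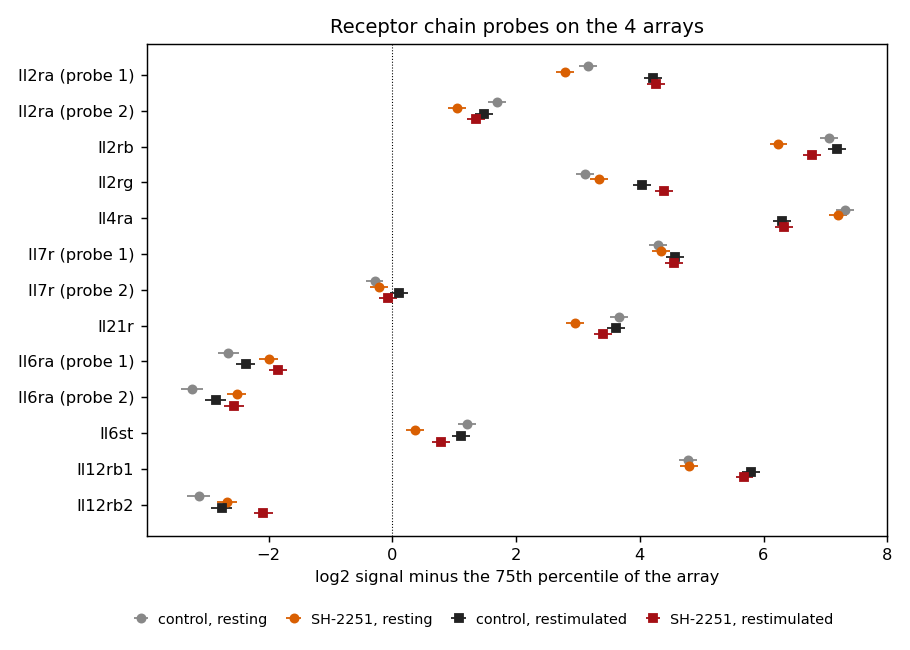
Log2 signal minus the 75th percentile of the array for the 13 probes of the 10 receptor chain genes, 1 point per array, with the technical SD of the array's error model as bars (circles, resting cells; squares, restimulated cells). The resting SH-2251 array holds the lowest point for Il2rb, Il21r and Il6st, whereas Il4ra separates by restimulation, with its resting points above its restimulated ones.

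With SH-2251, Il4ra, Il7r and Il12rb1 were within the technical SD of control in each state. In both states Il2rb, Il21r and Il6st were lower and Il2rg, Il6ra and Il12rb2 were higher in the treated cells. Of these, Il2rg at rest (0.23) and Il21r after restimulation (-0.21) were barely beyond the technical SD of 0.20. Il2ra was lower at rest on both probes and within the technical SD after restimulation. No receptor chain differed 2-fold between SH-2251 and control in either state. Of 12683 genes compared in resting cells, 2.90% were lower and 2.22% higher by at least that fold, and of 12622 in restimulated cells 2.78% were lower and 2.65% higher. At 1.5-fold, 3 of the 10 genes were lower in resting cells (Il2rb, Il21r and Il6st), against 7.45% of all genes, and 1 was higher (Il6ra), against 6.09%. In restimulated cells 0 of the 10 were lower by 1.5-fold, against 7.15% of all genes, and 1 was higher (Il12rb2), against 6.90%. The median over the 10 genes was -0.052 in resting and 0.0018 in restimulated cells, beside -0.055 and -0.063 over all genes. In each state 5 of the 10 genes lay below 0 and 5 above, and 3 in resting and 4 in restimulated cells lay within 1 technical SD of 0. In resting cells all 10 T cell markers were below control with SH-2251 (median -0.22) and none by 2-fold, against 5 of 10 after restimulation (median 0.0083). Cd3d, Cd3g, Cd5 and Thy1 were below control at rest by less than the technical SD. Of the 9 Th2 markers 8 were below control at rest (median -0.55) and 6 after restimulation (median -0.23). Of these 4 and 3 were at least 2-fold lower, against 2.90% and 2.78% of all genes. Their part in the receptor differences was not tested.

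**Figure D2:**
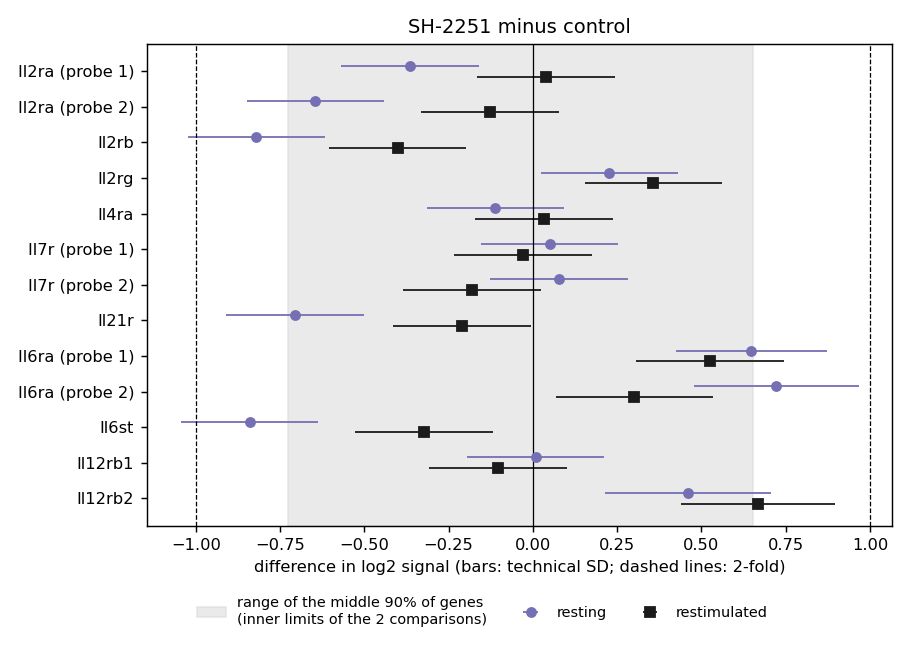
Difference in log2 signal between SH-2251 and control for each receptor probe in resting cells (circles) and restimulated cells (squares), with the technical SD as bars and the inner limits of the middle 90% of all genes in grey. Il2rb and Il6st of resting cells lie to the left of the grey band, Il6ra (probe 2) of resting cells and Il12rb2 of restimulated cells lie to its right, and no probe reaches the dashed 2-fold lines. The right edge is the limit of resting cells (0.65). Il12rb2 of restimulated cells (0.67) lies within the limit of its own comparison (0.72).

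The IL-2 receptor was read by its 3 chains. Il2rb codes for the β chain, which signals for IL-2 and IL-15. Its level was 7.06 in resting control cells, 6.24 in resting SH-2251 cells, 7.19 in restimulated control cells and 6.79 in restimulated SH-2251 cells. Both treated cultures were below both control cultures, and the resting treated culture was lowest. The difference was -0.82 (technical SD 0.20) in resting cells, which is 1.77-fold lower, and 4.11% of genes lay as low. In restimulated cells it was -0.40 (technical SD 0.20), or 1.32-fold lower.

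Il2ra codes for CD25, the α chain that raises the affinity for IL-2 and is itself a target of STAT5. Its brighter probe read 3.16 in resting control, 2.80 in resting SH-2251, 4.22 in restimulated control and 4.26 in restimulated SH-2251 cells. The treated culture differed by -0.36 (technical SD 0.20) in the resting state, where 16.2% of genes lay as low, and the restimulated cultures differed by 0.039, within the technical SD. The dimmer probe read 1.69, 1.04, 1.48 and 1.35 in the same order, and its SH-2251 difference was -0.65 in resting and -0.13 in restimulated cells. Both probes were therefore lower in resting treated cells, by unequal amounts. The Il2rg level, for the common γ chain, was 3.11 in resting control, 3.34 in resting SH-2251, 4.03 in restimulated control and 4.39 in restimulated SH-2251 cells. Unlike Il2ra and Il2rb, it was slightly above control in the resting treated culture, by 0.23, and by 0.36 after restimulation, each with a technical SD of 0.20.

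Of the other chains that pair with the common γ chain, Il21r differed with SH-2251 and Il4ra and Il7r did not by more than the technical SD of 0.20. Il21r, the IL-21 receptor chain, read 3.66 in resting control, 2.95 in resting SH-2251, 3.62 in restimulated control and 3.41 in restimulated SH-2251 cells. The resting treated culture was the low one and both controls were alike within the technical SD. The difference was -0.71 in resting cells, 1.63-fold lower with 5.41% of genes as low, and -0.21 in restimulated cells. Il4ra, the IL-4 receptor α chain, read 7.31 and 7.20 in resting control and SH-2251 cells and 6.29 and 6.33 in restimulated ones. Its SH-2251 difference was -0.11 at rest and 0.033 after restimulation. Il7r, the IL-7 receptor α chain that marks long-lived T cells, read 4.29 and 4.34 at rest and 4.57 and 4.55 after restimulation on its brighter probe. Its 4 SH-2251 differences, over both probes and both states, lay between -0.18 and 0.076.

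The chains of the IL-6 receptor differed in opposite directions. Il6st, for gp130, read 1.21 in resting control, 0.37 in resting SH-2251, 1.11 in restimulated control and 0.79 in restimulated SH-2251 cells. The order of its arrays was the same as for Il21r, with the controls highest and the resting treated culture lowest. The resting difference of -0.84 (technical SD 0.20) was the lowest of the 10 genes, 1.79-fold lower with 3.92% of genes as low, and the restimulated one was -0.32. Il6ra, for the chain that binds IL-6, was dim, with levels of -2.65, -2.00, -2.37 and -1.85 on its brighter probe in resting control, resting SH-2251, restimulated control and restimulated SH-2251 cells. Both treated cultures were above both controls. The difference was 0.65 (technical SD 0.22) in resting cells, 1.57-fold higher with 5.05% of genes as high, and 0.52 (technical SD 0.22) in restimulated cells. The dimmer probe gave 0.72 and 0.30.

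For the IL-12 receptor, Il12rb1, whose product also serves the IL-23 receptor, was level between SH-2251 and control. It read 4.78 and 4.79 in resting control and SH-2251 cells and 5.80 and 5.69 in restimulated ones, so that the differences were 0.0078 and -0.10. Il12rb2 read -3.13 in resting control, -2.67 in resting SH-2251, -2.76 in restimulated control and -2.09 in restimulated SH-2251 cells. The treated culture was the higher in each state, by 0.46 (technical SD 0.25) at rest and by 0.67 (technical SD 0.23) after restimulation, where 5.59% of genes lay as high. With another background correction (normexp without spots of uneven background) these were 0.18 and 0.37. Plain normexp, with those spots kept, gave 0.82 and 0.37. With either form Il12rb2 was under 1.5-fold in restimulated cells, whereas its resting value depended on the form. The signal behind these levels was low, at 63.9 intensity units in resting control and 137 in restimulated SH-2251 cells. Cd8a, a dim marker of CD8 T cells here, was also higher with SH-2251, by 1.45 and 0.97. Nkg7, the other CD8 T and NK cell marker well above background on all 4 arrays, differed by -0.069 and -0.26, and Eomes was well above background in the 2 treated cultures only, at least 1.47-fold and 1.30-fold higher. The part of such cells in the Il12rb2 difference was not tested.

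After 4 h on anti-TCR-β, Il12rb1, Il2rg and the brighter Il2ra probe were higher and Il4ra was lower than in resting cells, with and without SH-2251. In control cells 1 receptor gene was at least 2-fold lower (Il4ra), against 7.34% of 12757 genes, and 2 were at least 2-fold higher (Il2ra and Il12rb1), against 7.20%. In SH-2251 cells 0 were 2-fold lower, against 6.98% of 12613 genes, and 2 were 2-fold higher (Il2ra and Il2rg), against 7.09%. Il2ra was 2.08-fold higher in control and 2.75-fold higher in SH-2251 cells by its brighter probe. Its dimmer probe differed by -0.21 in control and 0.31 in SH-2251 cells, so the 2 probes disagreed and its restimulation value rests on the choice of probe. Il12rb1 was 2.02-fold and 1.87-fold higher, and Il2rg was 1.90-fold and 2.08-fold higher, in control and SH-2251 cells respectively. Il4ra was 2.03-fold lower in control and 1.83-fold lower in SH-2251 cells. For Il12rb1, Il2rg and Il4ra the values in control and SH-2251 cells lay on either side of 2-fold but differed by less than their technical SD, so the unlike gene names behind the 2 counts carry no difference between the cultures. Il7r was higher by 0.29 and 0.21 on its brighter probe. The median over the 10 genes was 0.28 in control and 0.50 in SH-2251 cells, beside -0.064 and -0.051 over all genes, with 7 and 9 of the 10 genes above 0.

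**Figure D3:**
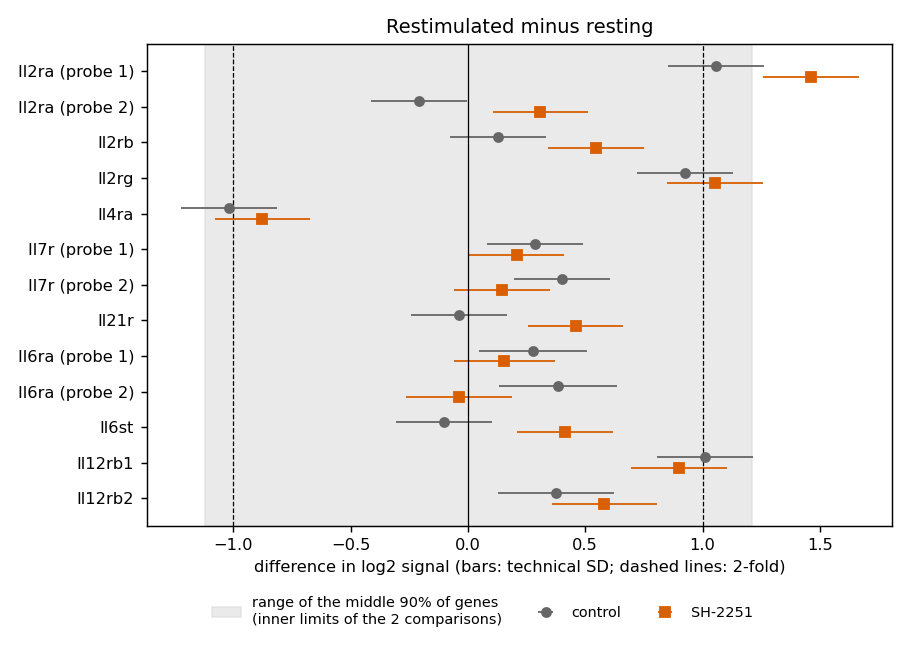
Difference in log2 signal between restimulated and resting cells for each receptor probe, in control cells (circles) and SH-2251 cells (squares), with the technical SD as bars and the inner limits of the middle 90% of all genes in grey. The brighter Il2ra probe (probe 1), Il2rg and Il12rb1 lie near or beyond the 2-fold line on the right and Il4ra near it on the left, while the dimmer Il2ra probe (probe 2) lies near 0.

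The chains that were lower with SH-2251 at rest were nearer to control after restimulation. The difference of the SH-2251 differences, restimulated minus resting, was 0.52 for Il6st, 0.50 for Il21r, 0.42 for Il2rb and 0.40 for Il2ra, each with a technical SD of 0.29. Of 11518 genes measured on all 4 arrays, 4.04%, 4.41%, 6.18% and 6.61% lay as high as these genes. The low resting difference that picks out these chains is also subtracted in this value, which favours a value above 0. The shares are over genes not picked in that way, so no conclusion is drawn from them. For Il2rg, Il4ra, Il7r, Il6ra, Il12rb1 and Il12rb2 it lay between -0.12 and 0.21 on the brighter or sole probe, within the technical SD. The dimmer probe gave -0.26 (technical SD 0.29) for Il7r, -0.42 (technical SD 0.34) for Il6ra and 0.52 (technical SD 0.29) for Il2ra. The same 4 arrays enter every one of these values, and without a second array per condition the difference between the states was not tested.

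The promoters of 8 of the 10 genes were found in a RefSeq table for the mouse build GRCm38.p6. The 250 bases before the start site are shown for the chain with the largest restimulation difference, the one that was lower after restimulation and the one that was lowest with SH-2251 at rest, which were Il2ra (chr2:11642542-11642791, plus strand), Il4ra (chr7:125552021-125552270, plus strand) and Il6st (chr13:112463820-112464069, plus strand).
Il2ra: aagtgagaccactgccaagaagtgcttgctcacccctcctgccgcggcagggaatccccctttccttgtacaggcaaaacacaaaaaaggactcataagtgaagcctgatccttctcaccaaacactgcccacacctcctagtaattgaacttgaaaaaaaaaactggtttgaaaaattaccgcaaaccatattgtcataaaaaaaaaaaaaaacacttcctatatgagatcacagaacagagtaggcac
Il4ra: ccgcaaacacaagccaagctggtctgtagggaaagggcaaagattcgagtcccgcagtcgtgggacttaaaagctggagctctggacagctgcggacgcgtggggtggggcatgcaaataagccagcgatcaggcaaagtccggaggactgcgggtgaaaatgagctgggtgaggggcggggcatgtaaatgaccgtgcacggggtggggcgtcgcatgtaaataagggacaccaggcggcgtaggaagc
Il6st: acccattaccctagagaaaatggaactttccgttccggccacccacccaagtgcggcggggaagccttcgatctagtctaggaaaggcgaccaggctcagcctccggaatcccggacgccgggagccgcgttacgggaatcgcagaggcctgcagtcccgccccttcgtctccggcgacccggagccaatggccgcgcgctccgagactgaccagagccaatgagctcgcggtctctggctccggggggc
Both strands of the 8 windows were searched for TTCNNNGAA, the core bound by most STATs, TTCNNNNGAA, the wider spacing preferred by STAT6, TGANTCA of AP-1 and GGAAAA of NFAT. These letters occur in 7.02%, 5.85%, 6.75% and 20.4% of 32851 windows of the same length. None of them occurs in the 3 windows shown. The first motif occurs in Il7r on chromosome 15, at bases 142 to 134 before the start, and in Il12rb2 on chromosome 6, at bases 123 to 115 before the start, both genes of the minus strand, and is shown in capitals with its flanks because these are the only STAT matches.
Il7r: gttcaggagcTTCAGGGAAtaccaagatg
Il12rb2: gttcccttttTTCTCAGAAccgcactaag
Il7r also held GGAAAA at bases 121 to 116. The start used for Il7r and Il12rb2 is not the outermost start annotated for the gene, and binding was not measured here.

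Of 91 other genes of the same signalling system that were listed by role, 88 could be matched by name to a probe of the array. With SH-2251 in resting cells 74 could be compared, and 7 (9.46%) were at least 2-fold lower and 0 higher, against 2.90% and 2.22% of all genes. In restimulated cells 78 could be compared, and 5 (6.41%) were at least 2-fold lower and 3 (3.85%) higher, against 2.78% and 2.65%. The median over these genes was -0.032 at rest and 0.037 after restimulation. The lists were drawn up with earlier results known, so these shares are a description. The 4 Janus kinases and 7 STATs had no member at 2-fold in either state. Of the STATs 6 of 7 were below 0 at rest and 6 of 7 above 0 after restimulation, with medians of -0.20 and 0.14. The medians over all genes were -0.055 and -0.063. Of those counted, Stat2, Stat5b and Stat6 at rest and Stat3, Stat4 and Stat6 after restimulation lay within their technical SD of 0. Stat3, which carries the signal of gp130 and the IL-21 receptor, differed by -0.50 at rest and by 0.045 after restimulation. Stat4 differed by -0.55 and 0.11.

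Among the receptor chains outside the 10 genes, 3 of 15 were 2-fold lower at rest, against 2.90% of all genes, and 2 of 16 in restimulated cells, against 2.78%. Csf2rb, the β chain shared by the receptors for IL-3, IL-5 and GM-CSF, read -1.88, -3.15, -2.42 and -3.93 in resting control, resting SH-2251, restimulated control and restimulated SH-2251 cells, a difference of -1.27 at rest and -1.51 after restimulation. Csf2rb2, the mouse copy of that chain for IL-3, was near background in both treated cultures, where it was at least 2.75-fold lower at rest and at least 1.69-fold lower after restimulation. Those bounds set the control level against the dimmest signal well above background on the treated array at rest, and against the probe's own signal, which was the higher of these, after restimulation. The 2 genes are close copies, and whether each probe reads only its own gene was not tested. Ifngr1, the IFN-γ receptor chain, differed by -1.14 at rest and -0.29 after restimulation. Il10ra, the IL-10 receptor chain, read 3.69, 2.86, 2.85 and 1.36 in that order, a difference of -0.83 at rest and 2.82-fold lower after restimulation.

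Of the ligands of these receptors, 2 of 10 compared were 2-fold lower at rest, against 2.90% of all genes, and 2 of 13 were lower and 2 higher after restimulation, against 2.78% and 2.65%. Il21 was at least 3.11-fold lower with SH-2251 at rest and 4.74-fold lower after restimulation, where it read 1.48 in control and -0.77 in SH-2251 cells. Il2 was not well above background in either resting culture, and read -1.44 in restimulated control and -2.97 in restimulated SH-2251 cells, 2.89-fold lower. Il6 was higher, at 5.68 in restimulated SH-2251 against 4.05 in restimulated control cells, a difference of 1.63. Il9 was well above background in restimulated SH-2251 cells only, where it was at least 3.96-fold higher than in control. Il13, a Th2 cytokine, differed by -1.32 at rest and by -0.57 after restimulation. Il21 and Il21r were both lower with SH-2251 in each state, Il21r after restimulation by only -0.21. Il6ra was higher and Il6st lower in each state, and Il6 was higher by 0.21 at rest and by 1.63 after restimulation.

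Of 17 feedback inhibitors, 1 (Socs3) was 2-fold lower at rest, against 2.90% of all genes, and 0 were after restimulation, against 2.78%. Socs3 codes for the inhibitor that binds gp130. It read 6.35 in resting control, 4.87 in resting SH-2251, 6.13 in restimulated control and 5.30 in restimulated SH-2251 cells, with the resting treated culture lowest as for Il6st. The difference was -1.48 at rest and -0.83 after restimulation. Of 20 known STAT5 or STAT6 target genes, 1 (Gfi1) was 2-fold lower in each state, against the same 2.90% and 2.78%. Gfi1, a transcriptional repressor that promotes Th2 growth, read 3.38, -2.01, 4.24 and 1.75 in the same order, a difference of -5.39 at rest and -2.49 after restimulation. Only 1 target gene (Lta) was 2-fold higher, after restimulation, against 2.65% of all genes. Lta, for lymphotoxin α, was higher by 0.58 at rest and 1.05 after restimulation. None of the 7 adaptors and linked kinases that could be compared reached 2-fold in either state, beside these shares and 2.22% of all genes higher at rest.

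**Figure D4:**
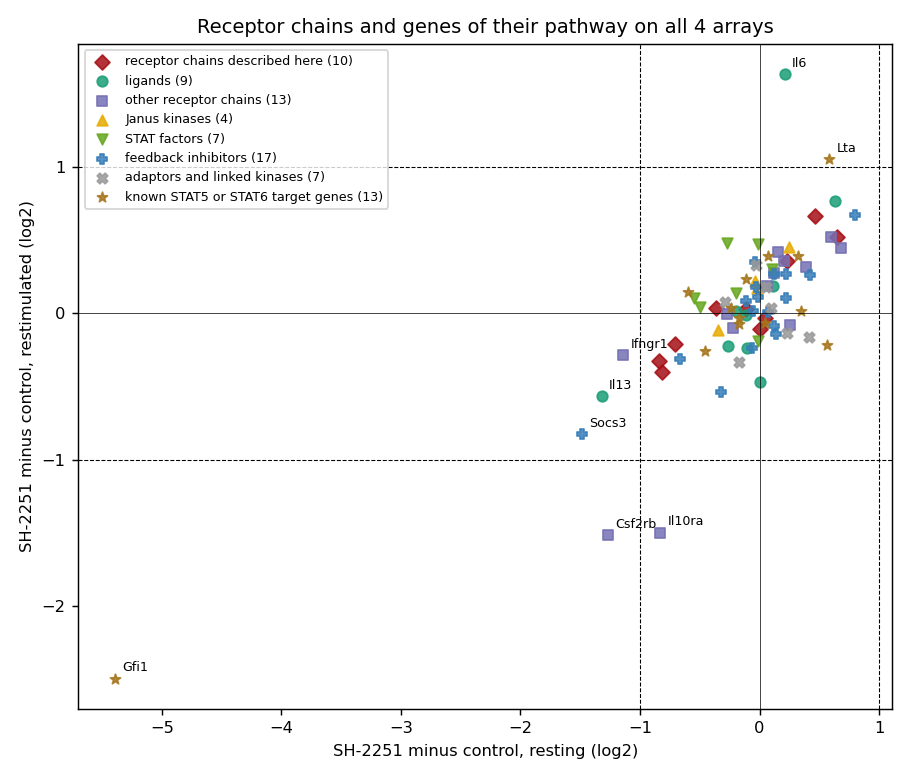
Difference in log2 signal between SH-2251 and control in resting cells (horizontal) and restimulated cells (vertical) for the 80 receptor chain and pathway genes well above background on all 4 arrays, coloured by role, with dashed lines at 2-fold. The receptor chains (diamonds) lie inside the 2-fold lines, while Gfi1, Socs3, Csf2rb, Il10ra, Ifngr1, Il13, Il6 and Lta lie outside at least 1 of them.

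The same pathway genes were also compared between restimulated and resting cells. In control cells 17 of 77 (22.1%) were at least 2-fold higher and 6 (7.79%) lower, against 7.20% and 7.34% of all genes. In SH-2251 cells 16 of 76 (21.1%) were higher and 4 (5.26%) lower, against 7.09% and 6.98%. Jak2 was higher by 1.97 in control and 2.18 in SH-2251 cells, and Stat5a by 2.47 and 3.23. Il4, the main Th2 cytokine, was higher by 3.56 and 3.43, and Il6 by 5.85 and 7.28. Among the receptor chains outside the 10 genes, Il15ra, which presents IL-15 to the β and γ chains, was higher by 1.13 and 0.89.

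The genes whose 4 values followed a receptor chain most closely were found by Euclidean distance between log2 levels centred on each gene's own mean, over 4 arrays and 11517 other genes. They are given for the 3 receptor genes with the widest range. For Il2ra they were Cd82 (0.014), Epb41l4a (0.041) and N4bp3 (0.11). For Il2rg they were Samd8 (0.048), Mtap (0.054) and Ogt (0.055), and for Il12rb2 they were Mfsd6 (0.079), Slc31a2 (0.098) and Arl13b (0.10). With 4 values per gene and this many genes searched, close profiles are found for most patterns.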

How the data were processed

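Total RNA (500 ng) of 4 cultures was labelled and hybridised to 4 Agilent one-colour mouse arrays on 1 slide. The authors extracted spot intensity values with Feature Extraction (10.7.3.1 in the file headers), and the deposited scanner intensity column is background-subtracted. The scanner's quality report put the net signal of negative controls out of range on 3 of 4 arrays. The authors also deposited log2 values, which the methods name as normalised on the Subio Platform. Against the scanner files, at least 99.6% of these differed from log2 of the intensity by a constant per array, within 0.01, so that they are uncentred per gene and on the 75th percentile scale.

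Here log2 of the processed signal minus the 75th percentile of each array was used. Outlier spots were left out and replicate spots were averaged. Gene names came from the platform annotation, in which 27198 of 41174 (66.1%) matched 1 gene. The brightest probe by mean over the arrays stood for a gene, and all probes of the 10 receptor genes are given. Genes had to be well above background on 1 or both arrays of a pair, and a dim side was replaced by the higher of its own value and the dimmest signal well above background. With 1 array per condition no test was run, and the 2 states were not treated as replicates of each other. A difference was counted at 2-fold, and the precision is limited by the number of arrays. The receptor genes and the gene lists were chosen with earlier results of these data known. Other genes were named if at least 2-fold different with SH-2251 in at least 1 state. Others of the lists, chosen after their values were seen, are Stat2, Stat3, Stat4, Stat5a, Stat5b, Stat6, Jak2, Il4 and Il15ra, besides the markers. The counting was tested on simulated data. Alternatives were the median and quantile scaling, the authors' log2 values, normexp background correction with an offset of 50 on median signals, outlier spots kept, other filters, the mean of all probes, folds of 1.5 and 3, and, chosen after seeing the data, the dimmer probe. Python 3.11.15, numpy 2.4.6, pandas 2.3.3, matplotlib 3.10.9, R 4.3.3 and limma 3.58.1 (normexp and quantile) were used.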

Additional observations from a re-analysis of the deposited data

Results flagged for a closer look

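For 4 receptor genes the SH-2251 difference lay on opposite sides of 0 in resting and restimulated cells. The restimulated minus the resting difference was 0.40 for Il2ra, 0.14 for Il4ra, -0.079 for Il7r and -0.11 for Il12rb1. For Il4ra, Il7r and Il12rb1 all the values concerned lay within 1 technical SD of 0. For Il2ra the restimulated value (0.039) did too, and its dimmer probe was below 0 in both states (-0.65 and -0.13). For 2 others the restimulation difference lay below 0 in control and above 0 in SH-2251 cells, with SH-2251 minus control at 0.50 for Il21r and 0.52 for Il6st. Their control values, -0.036 and -0.10, lay within 1 technical SD of 0, so their sign is uncertain. Each rests on 1 array per condition and was not tested.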

How the results depend on the processing

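Of the differences of the 10 receptor genes in the 4 comparisons (40 values), all 40 moved by less than the technical SD with the median scaling and with outlier spots kept. Median scaling shifts all values of a comparison alike. The same count was found with the authors' log2 values, the filter on both arrays and neither filter, but these settings could not show otherwise. The authors' values differ from the scanner's by little more than a constant per array. All 13 receptor probes were well above background on all 4 arrays, so the filters left them as they were. Quantile scaling moved 2, the mean of all probes 2, and normexp without spots of uneven background 3. Plain normexp moved 19, and its fitted background mean was -151.7 on the resting SH-2251 array against 7.36 to 8.23 on the others, or 7.42 without the uneven spots. Over these settings, plain normexp included, the resting SH-2251 difference ranged from -1.10 to -0.63 for Il2rb, -0.98 to -0.63 for Il21r, -0.87 to -0.78 for Il6st, 0.43 to 0.91 for Il6ra and 0.18 to 0.82 for Il12rb2, and the restimulated one from 0.37 to 0.71 for Il12rb2. At the low ends Il6ra and Il12rb2 were under 1.5-fold. The Il12rb2 difference for restimulation in SH-2251 cells ranged from -0.28 to 0.58. With normexp 1 receptor gene (Il2rb, -1.10) was 2-fold different at rest, where none was otherwise. For restimulation in control cells the count of 3 was 1 with quantile scaling, which left Il4ra at -1.19, and 2 with median scaling (Il12rb1 at 0.99), with the mean of all probes (Il2ra at 0.42) and with the dimmer probe. In SH-2251 cells the count of 2 was 1 with the mean of all probes and 1 with the dimmer probe, which both lose Il2ra, and with the dimmer probe Il2ra was reversed in control cells, at -0.21. Quantile scaling kept a count of 2 in SH-2251 cells but changed the genes, with Il4ra at -1.14 and Il2rg at 0.95. Plain normexp gave 3 there. At a threshold of 1.5-fold the counts were 4 and 1 for SH-2251 at rest and after restimulation and 4 for restimulation in SH-2251 cells. At 3-fold they were 0 for restimulation in control cells and 0 in SH-2251 cells. The technical SD of a difference was close to 0.20 for most probes and 0.21 to 0.25 for the dim Il6ra and Il12rb2 probes, which lie nearest to background.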
